A study of Mus musculus with 46 samples.

Results

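The transcripts described here are those of 9 chemokines (Cxcl1, Cxcl2, Cxcl5, Cxcl10, Cxcl16, Ccl2, Ccl7, Ccl20 and Cx3cl1) and of Csf3, the granulocyte colony-stimulating factor. The 10 genes were chosen by name, with earlier results of these data known, and each has a row in all 4 expression tables, which share 54346 rows. Chemokines are small secreted proteins that draw leukocytes along a gradient through G protein-coupled receptors on the responding cell. Epithelial cells, hepatocytes included, raise many of them after tumour necrosis factor, interleukin-1 or microbial products, largely through NF-kB, and their mRNAs are often short-lived because of AU-rich elements. Csf3 drives the production of neutrophils in bone marrow, and Cxcl1, Cxcl2 and Cxcl5 attract those neutrophils to tissue through Cxcr2.

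The series concerns Falcor, a mouse long noncoding RNA (row 9030622O22Rik) that its title places in nuclear speckles, and holds 46 RNA-seq libraries in 13 groups. Of these, 27 came from AML12, an immortalized line of mouse hepatocytes established from a mouse that carried a transforming growth factor alpha transgene. A first AML12 table had 3 libraries for each of 6 groups, which were a line with a doxycycline-inducible hairpin named shLinc and a line with an inducible control hairpin named shCtrl, each without doxycycline (No Dox), with it (Add Dox) and after its removal (Restored). A second AML12 table had 3 libraries each of cells with a conventional hairpin against Falcor (shFalcor), one against the zinc finger protein ZC3H11A (shZC3H11A) and a control hairpin (shCtrl). The other 19 were whole livers of Falcor KO and control mice, with 4 KO and 4 control livers labelled NCD and 6 KO and 5 control livers labelled HFD. Neither the number of clones behind each line, nor the dose and duration of doxycycline, nor the KO allele, strain, age and time on diet are given in the sources used here. No label states that replicates were separate cultures, so AML12 p-values reflect only library-to-library spread, possibly of technical origin.

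The conventional table held raw counts, with 4474760 to 8837581 reads per library. The other 3 tables held whole-number values in a normalized unit that the authors did not name, so their depth is unknown and their values are called deposited values. Falcor was listed at 9 to 12 in shLinc cells without doxycycline, 2 to 3 with it and 9 to 11 after its removal, against 4 to 6 in shCtrl cells in every state, so the shLinc line exceeded its control except under doxycycline. Under conventional hairpins Falcor had 4 to 7 counts in shFalcor and 3 to 6 in shZC3H11A cells, against 11 to 38 in shCtrl cells, and it was listed at 0 in all 10 KO livers. Zc3h11a had 33 to 64 counts in shZC3H11A and 155 to 374 in shFalcor cells, against 359 to 558 in shCtrl cells, and was lower in both knockdowns (log2 change -3.03 in shZC3H11A and -0.75 in shFalcor cells, edgeR adjusted p = 2.03e-05 and 0.0243). AML12 libraries of both tables contained 8 of 9 hepatocyte markers, and Apoa2 was at 0 in all 27. In the inducible lines 7 of 9 macrophage markers were at 0 in every group and the summed list stayed at or below 4.63, while no chemokine receptor of a list of 23, nor Csf3r, passed the filter on low values in any of the 4 tables.

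The members fall into several chromosomal neighbourhoods on mm10. Cxcl5 (chr5:90759360-90761624, plus strand), Cxcl1 (chr5:90891241-90893115, plus) and Cxcl2 (chr5:90903871-90905938, plus) lie in one cluster. Only 10755 bases and no other coding gene separate Cxcl1 from Cxcl2, whereas Cxcl5 and Cxcl1 have 4 coding genes between them. Cxcl10 (chr5:92346638-92348889, minus) is on the same chromosome outside that cluster. Ccl2 (chr11:82035571-82037453, plus) and Ccl7 (chr11:82045712-82047525, plus) are neighbours 8258 bases apart. Csf3 (chr11:98701263-98703629, plus) and Cxcl16 (chr11:70453983-70459984, minus) share that chromosome, Ccl20 (chr1:83116766-83119167, plus) is on another, and Cx3cl1 is on a further one.

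RefSeq (GRCm38.p6) gave promoters for 5 of the 10 members, from 250 bases before to 50 after the start. Those of the neighbours Cxcl1 and Cxcl2 are shown with those of Cxcl10 and Ccl20, which lie elsewhere. Cxcl1, Cxcl2 and Ccl20 were all lower with doxycycline in both lines, and Cxcl10 was not tested there. Capitals mark matches, on either strand, to an NF-kB motif (GGGA, any 2 bases, TTCC; in Cxcl1, Cxcl2 and Cxcl10), to the AP-1 motif TGANTCA (in Cxcl10) and to an interferon-response motif (GAAA, any 2 bases, GAAA; in Cxcl10).
Cxcl1, chr5:90890995-90891294, plus strand: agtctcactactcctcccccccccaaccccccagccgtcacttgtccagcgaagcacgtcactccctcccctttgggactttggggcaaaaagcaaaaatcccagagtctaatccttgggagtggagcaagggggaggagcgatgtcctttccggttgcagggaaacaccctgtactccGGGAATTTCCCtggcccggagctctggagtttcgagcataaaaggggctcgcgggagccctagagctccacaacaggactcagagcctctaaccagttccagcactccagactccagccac
Cxcl2, chr5:90903649-90903948, plus strand: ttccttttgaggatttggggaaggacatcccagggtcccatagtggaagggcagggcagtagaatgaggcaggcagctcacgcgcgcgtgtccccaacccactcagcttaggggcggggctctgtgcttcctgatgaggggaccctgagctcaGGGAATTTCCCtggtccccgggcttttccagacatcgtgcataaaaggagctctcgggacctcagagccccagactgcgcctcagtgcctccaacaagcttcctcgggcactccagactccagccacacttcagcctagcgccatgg
Cxcl10, chr5:92348840-92349139, minus strand: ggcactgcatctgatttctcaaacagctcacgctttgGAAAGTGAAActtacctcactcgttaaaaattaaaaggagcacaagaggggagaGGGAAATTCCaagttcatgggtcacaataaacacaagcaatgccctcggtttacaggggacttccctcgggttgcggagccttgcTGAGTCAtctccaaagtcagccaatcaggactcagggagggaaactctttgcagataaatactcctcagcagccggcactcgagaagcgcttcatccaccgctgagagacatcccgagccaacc
Ccl20, chr1:83116516-83116815, plus strand: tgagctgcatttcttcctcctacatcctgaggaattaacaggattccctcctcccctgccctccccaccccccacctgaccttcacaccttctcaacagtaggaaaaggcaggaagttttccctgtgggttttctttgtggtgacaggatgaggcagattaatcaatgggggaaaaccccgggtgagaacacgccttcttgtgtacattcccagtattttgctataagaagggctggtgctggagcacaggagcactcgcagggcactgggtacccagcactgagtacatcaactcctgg
The match was the same run, GGGAATTTCCC, in the first 2 promoters, at -71 to -61 from the Cxcl1 start and at -97 to -87 from the Cxcl2 start. Cxcl10 had GGGAAATTCC at -159 to -150, TGAGTCA at -74 to -68 and GAAAGTGAAA at -213 to -204. Of 32851 promoters of this length, 1.47% held the NF-kB motif, 7.81% the AP-1 motif and 3.44% the interferon-response motif. None of the 4 printed promoters held the C/EBP motif (TTGC, any 2 bases, AA), present in 10.8% of promoters, and the Ccl20 window held none of the searched motifs. Only these letter patterns were searched, so other forms of such sites would not be found. These are matches of letters and no binding was measured.

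Untreated cells hold the hairpins without their inducer. In them the shLinc line already had several times more transcript of the neutrophil-attracting Cxcl genes and of Csf3 than the control line. It had less Ccl2 and Ccl20, while Ccl7 and Cxcl16 were lower by small differences, both calls lost without rescaling. Of the 10 members, 8 were tested (a mean deposited value of at least 3 over the 18 libraries), and 4 were higher and 4 lower in shLinc cells at a limma adjusted p below 0.05. Over all 9877 tested genes 65.3% were called in this comparison, so the call alone is common, and the sizes are what follows. The median absolute log2 change of the tested members was 1.35, against 0.295 over all tested genes. Since members were chosen with earlier results of these data known, this contrast is a description and not a test. All log2 changes in this table are of value plus 1, which understates the change of low genes, and whole-number rounding hides part of the spread of low values.

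Cxcl5, which encodes the neutrophil attractant known in mouse as LIX, was listed at 547, 560 and 560 in untreated shLinc cells and at 65, 63 and 57 in untreated shCtrl cells. Every shLinc library lay far above every shCtrl library, a ratio of scaled means of 7.88 (log2 change 2.96, SE 0.07, limma adjusted p = 2.4e-15). Cxcl1, the keratinocyte-derived neutrophil attractant, was listed at 756, 793 and 783 in shLinc and 277, 279 and 258 in shCtrl cells (log2 change 1.33, SE 0.06, limma adjusted p = 3.05e-12). Cxcl2, also called MIP-2, stood at 52, 53 and 53 in shLinc and 10, 10 and 11 in shCtrl cells (log2 change 2.06, SE 0.10, limma adjusted p = 1.38e-11). The groups did not overlap for any of these 3 genes.

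Csf3 was listed at 12, 13 and 12 in untreated shLinc cells and at 1, 1 and 1 in untreated shCtrl cells. Its log2 change was 2.58 (SE 0.20, limma adjusted p = 6.48e-09), and it passed the filter on low values through this one group alone, failing it without any 1 of the 3 untreated shLinc libraries, so it had to differ to be tested, and the counts and median of tested members above include it. The monocyte attractant Ccl2 went the other way, with 1050, 1064 and 1097 in shLinc and 1890, 1790 and 1688 in shCtrl cells (log2 change -0.93, SE 0.05, limma adjusted p = 2.38e-10). Ccl20, the ligand of Ccr6 on lymphocytes and dendritic cells, stood at 76, 77 and 81 in shLinc and 190, 172 and 173 in shCtrl cells (log2 change -1.37, SE 0.08, limma adjusted p = 1.54e-10). Both were lower in every shLinc library than in any shCtrl library.

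Differences of the other 2 called members were small. Ccl7, a second monocyte attractant, was listed at 4, 4 and 7 in shLinc and 9, 6 and 7 in shCtrl cells, values that overlapped (log2 change -0.66, SE 0.25, limma adjusted p = 0.0297). Cxcl16, a membrane-bound chemokine and scavenger receptor whose ectodomain is shed, stood at 19, 19 and 20 in shLinc and 20, 21 and 20 in shCtrl cells (log2 change -0.25, SE 0.09, limma adjusted p = 0.0209). Both calls were lost without rescaling, at limma adjusted p = 0.0787 for Ccl7 and 0.509 for Cxcl16, and without shLinc replicate 2 the number of called members fell to 5, since neither gene was called and Csf3 failed the filter.

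**Figure D1:**
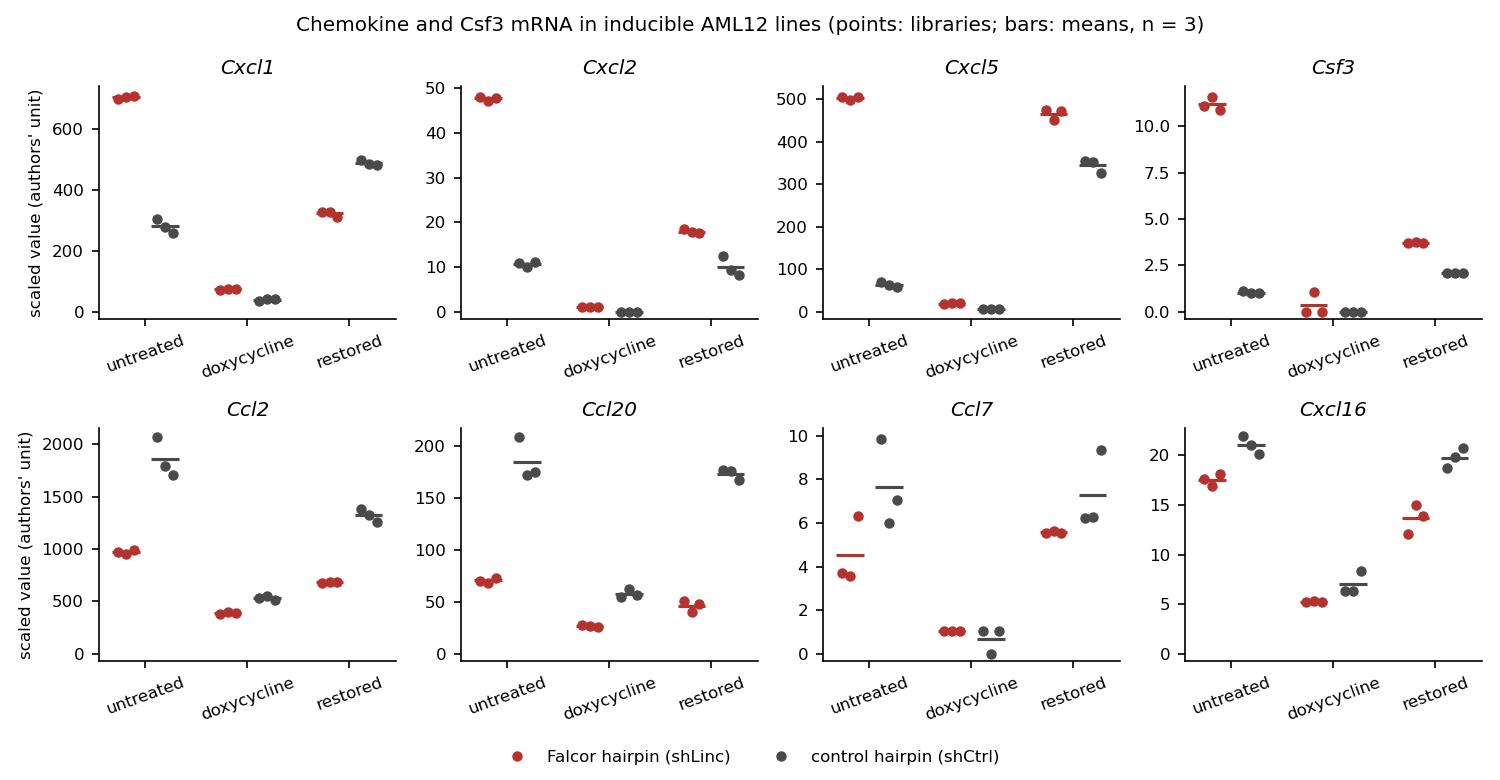
Scaled values (vertical axis, the authors' unit after TMM scaling, one linear axis per gene) of 8 members in each library of the inducible lines, by state along the horizontal axis, with shLinc in red left of shCtrl in grey; points are libraries and bars are means of 3. Cxcl1, Cxcl2, Cxcl5 and Csf3 are higher in untreated shLinc cells, Ccl2 and Ccl20 are lower in shLinc cells in each state, and every panel drops under doxycycline.

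With doxycycline, 3 members were higher and 3 lower in shLinc than in shCtrl cells, against 52.4% of all tested genes called in this comparison. Cxcl1 was listed at 68, 71 and 73 in shLinc and 34, 40 and 39 in shCtrl cells, a ratio of scaled means of 1.88 with no overlap (log2 change 0.90, SE 0.06, limma adjusted p = 1.37e-09). Cxcl5 stood at 17, 19 and 19 in shLinc and 6, 7 and 7 in shCtrl cells, a ratio of 2.76 (log2 change 1.35, SE 0.07, limma adjusted p = 1.18e-10). Cxcl2 was listed at 1, 1 and 1 in shLinc cells and at 0 in all 3 shCtrl libraries (limma adjusted p = 1.94e-07), so no fold is given and the rounding to whole numbers sets its spread.

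Ccl2 and Ccl20 remained lower in the shLinc line under doxycycline. Ccl2 stood at 359, 377 and 370 in shLinc and 507, 525 and 495 in shCtrl cells (log2 change -0.46, SE 0.05, limma adjusted p = 2.65e-06), and Ccl20 at 26, 25 and 25 in shLinc and 52, 59 and 54 in shCtrl cells (log2 change -1.08, SE 0.08, limma adjusted p = 7.65e-09). Cxcl16 was listed at 5, 5 and 5 in shLinc and 6, 6 and 8 in shCtrl cells (log2 change -0.34, SE 0.09, limma adjusted p = 0.00404). The groups did not overlap for these 3 genes. Ccl7, at 1, 1 and 1 in shLinc and 1, 0 and 1 in shCtrl cells, and Csf3, at 0, 1 and 0 in shLinc and 0 in all shCtrl libraries, were not called (limma adjusted p = 0.258 and 0.15).

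After removal of doxycycline, 3 members were higher and 4 lower in shLinc cells, against 57.9% of all tested genes called. Cxcl1 differed in direction from the other states, with 355, 351 and 337 in shLinc and 479, 465 and 464 in shCtrl cells (log2 change -0.59, SE 0.06, limma adjusted p = 1e-07). Cxcl5 was still higher in the shLinc line, at 514, 480 and 510 against 342, 338 and 315 in shCtrl cells (log2 change 0.43, SE 0.07, limma adjusted p = 3.46e-05), as was Cxcl2, at 20, 19 and 19 against 12, 9 and 8 (log2 change 0.80, SE 0.10, limma adjusted p = 2.42e-06). Neither pair of groups overlapped, and the neighbours Cxcl1 and Cxcl2 thus went in opposite directions in this state.

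Ccl20 stood at 55, 43 and 52 in restored shLinc and 170, 169 and 161 in shCtrl cells (log2 change -1.88, SE 0.08, limma adjusted p = 2.97e-12). Ccl2 stood at 731, 733 and 741 in shLinc and 1335, 1275 and 1218 in shCtrl cells (log2 change -0.95, SE 0.05, limma adjusted p = 1.94e-10). Cxcl16 was lower at 13, 16 and 15 against 18, 19 and 20 in shCtrl cells (log2 change -0.51, SE 0.09, limma adjusted p = 0.000117). Csf3 was listed at 4, 4 and 4 in shLinc and 2, 2 and 2 in shCtrl cells (limma adjusted p = 0.0132, and 0.0528 with a pseudocount of 0.5), and Ccl7, at 6, 6 and 6 against 6, 6 and 9, was not called (limma adjusted p = 0.302).

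All 8 tested members were lower with doxycycline in both lines, the line with the control hairpin included. In shLinc cells 8 were lower and 0 higher with doxycycline than without, against 35.6% of all tested genes called lower and 74.2% called in either direction. The 8 include Csf3, which was tested only because of its untreated shLinc values, so its drop in this line was set by the filter. In shCtrl cells likewise 8 were lower and 0 higher, against 32.5% called lower and 66.5% in either direction. In shLinc cells the scaled mean of Cxcl1 was 74.4 with doxycycline and 705 without it (log2 change -3.23, SE 0.06, limma adjusted p = 1.24e-17). In shCtrl cells it was 39.5 with doxycycline and 281 without it (log2 change -2.80, SE 0.06, limma adjusted p = 2.53e-16). The ratio was 9.48-fold lower in the Falcor hairpin line and 7.11-fold lower in the control line.

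The size of the drop differed between members. In shLinc cells Cxcl5 had a log2 change of -4.64 (SE 0.07) and in shCtrl cells -3.02 (SE 0.07), both from limma. Ccl2 had log2 changes of -1.32 in shLinc and -1.79 in shCtrl cells (SE 0.05 each), and Ccl20 of -1.37 in shLinc and -1.66 in shCtrl cells (SE 0.08 each). Cxcl16 had log2 changes of -1.56 in shLinc and -1.47 in shCtrl cells (SE 0.09 each). Cxcl2 and Csf3 were listed at 1 or less in every library with doxycycline, in both lines, so no fold is given for them. Cxcl10, the interferon-induced ligand of Cxcr3, failed the filter. It was listed at 5, 6 and 5 in untreated shLinc cells and at 5, 6 and 6 in untreated shCtrl cells, and at 1 or less in every doxycycline library of either line.

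Removal of doxycycline was followed by higher values of all 8 tested members in both lines, against 34.2% of tested genes called higher (72.2% in either direction) in shLinc and 39.6% (73.7%) in shCtrl cells. Members differed in how restored cells compared with untreated ones. In shLinc cells 6 of the 8 stayed lower when restored than when untreated and 0 were higher, against 52.3% of tested genes called in either direction. The 6 include Csf3, which was tested only because of its untreated shLinc values. Cxcl1 in these cells had a log2 change of -1.12 (SE 0.06, limma adjusted p = 4.76e-11) between restored and untreated libraries, and Cxcl5 one of -0.11 (SE 0.07, limma adjusted p = 0.176). In shCtrl cells 3 were higher and 1 lower, against 49.9% of tested genes called, and Cxcl2, Cxcl16, Ccl7 and Ccl20 were not called, with log2 changes of -0.10 to -0.06 and overlapping values. Cxcl5 there was listed at 342, 338 and 315 when restored and at 65, 63 and 57 when untreated, a log2 change of 2.42 (SE 0.07, limma adjusted p = 5.11e-14). The restored control line thus had more Cxcl5 than the untreated control line, with no overlap. Comparisons of a state with the other 2 share libraries, and each is given by its own values.

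The difference between the hairpins itself differed between states. Between doxycycline and untreated cells, 3 members had a higher and 4 a lower hairpin difference, against 64.9% of tested genes called. The 4 include Csf3, which was tested only because of its untreated shLinc values. The hairpin difference of Cxcl5 was 1.35 with doxycycline and 2.96 without it on the log2 scale, a difference of -1.62 (SE 0.10, limma adjusted p = 2.97e-10). Between doxycycline and restored cells, 4 had a higher hairpin difference and 0 a lower one, against 60.5% called. The direction for Cxcl2 depended on the pseudocount, with a difference of 0.81 at 0.5 and -0.34 at 5 (limma adjusted p = 0.00019 and 0.00564), and Csf3 was called lower at 5 (-0.21, limma adjusted p = 0.0439). Cxcl1 had the largest of the 8, with hairpin differences of 0.90 with doxycycline and -0.59 after its removal (difference 1.49, SE 0.08, limma adjusted p = 1.07e-10).

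Ratios of 2 members within a library do not depend on how libraries are scaled. In untreated cells the Cxcl5 to Ccl2 ratio of deposited values was 0.511 to 0.526 in shLinc and 0.0338 to 0.0352 in shCtrl libraries. With doxycycline it was 0.0474 to 0.0514 in shLinc and 0.0118 to 0.0141 in shCtrl libraries. After removal it was 0.655 to 0.703 in shLinc and 0.256 to 0.265 in shCtrl libraries. The shLinc line had the higher ratio in each state without overlap, and both lines had their lowest ratio with doxycycline. The Ccl20 to Ccl2 ratio moved less, at 0.0587 to 0.0752 over all 9 shLinc and 0.0961 to 0.133 over all 9 shCtrl libraries, and was lower in every shLinc library than in any shCtrl library.

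Correlation with the mean standardized profile of the 8 tested members, over 18 libraries that share 3 treatment states, named the genes most like them. The nearest were Ikbke, a kinase of innate immune signalling, with a Pearson r of 0.993, Tmem205 with 0.985, and Nfkbia, the NF-kB inhibitor that NF-kB itself induces, with 0.984. Scaled Nfkbia averaged 111 in untreated shLinc and 115 in untreated shCtrl cells. With doxycycline it averaged 37.9 in shLinc and 33.6 in shCtrl cells, and after its removal 88.9 in shLinc and 94.9 in shCtrl cells. Among the members, Cxcl16 and Cxcl1 had an r of 0.964 with that profile, to which they contribute, and Ccl20 the lowest at 0.691.

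Under conventional hairpins, both knockdowns had less Cxcl1, Cxcl5, Cxcl10 and Ccl20 transcript than the control hairpin. Ccl2 did not pass the test in either, and the low-count Ccl7 was called higher in both, calls lost on leaving out single libraries. Of the 10 members 8 were tested. Cxcl16 was listed at 0 counts in all 9 libraries, and it is not known whether its row was quantified in the same way as in the inducible table, where it was listed at 5 to 21. Cx3cl1, the membrane-tethered ligand fractalkine, had 0 to 6 counts here and was listed at 0 in all 18 inducible libraries. In shFalcor cells 1 was higher and 5 lower, against 51.5% of 11871 tested genes called. In shZC3H11A cells 1 was higher and 4 lower, against 48.5% called. The median absolute log2 change was 1.77 in shFalcor and 1.73 in shZC3H11A cells, against 0.445 and 0.415 over all tested genes. The counts of called members and these medians include Cxcl10 and Ccl7, and in shFalcor cells also Cxcl2. These genes passed the filter through the groups where they are high. Members were chosen with earlier results of these data known, so the contrast is a description and not a test. The 2 comparisons share the 3 control libraries.

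Cxcl5 had 797, 506 and 850 counts in shFalcor, 339, 169 and 204 in shZC3H11A, and 4993, 3546 and 4069 in shCtrl cells. In CPM (counts scaled to library size with TMM factors) this was 110 ± 18.5 in shFalcor, 40.5 ± 5.77 in shZC3H11A and 627 ± 45.2 in shCtrl cells (SD, n = 3 each), with no overlap between any 2 groups. Cxcl5 was thus 5.72-fold lower in shFalcor cells (log2 change -2.52, SE 0.12, edgeR adjusted p = 8.9e-09) and 15.5-fold lower in shZC3H11A cells (log2 change -3.94, SE 0.13, edgeR adjusted p = 5.03e-10) than in shCtrl cells. It was higher in shFalcor than in shZC3H11A cells (log2 change 1.42, SE 0.13, edgeR adjusted p = 2.68e-06).

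Cxcl1 had 952, 717 and 1402 counts in shFalcor, 643, 440 and 521 in shZC3H11A and 1986, 1606 and 1560 in shCtrl cells, or 153 ± 2.70 CPM in shFalcor, 93.8 ± 3.89 CPM in shZC3H11A and 258 ± 29.4 CPM in shCtrl cells (SD, n = 3 each). The 3 groups did not overlap in CPM. The log2 change against shCtrl was -0.75 in shFalcor (SE 0.08, edgeR adjusted p = 2.07e-07) and -1.46 in shZC3H11A cells (SE 0.08, edgeR adjusted p = 7.96e-11). Ccl20 had 29, 24 and 31 counts in shFalcor, 15, 10 and 11 in shZC3H11A and 96, 82 and 90 in shCtrl cells. Its groups were likewise separate, with log2 changes of -1.64 in shFalcor (SE 0.25, edgeR adjusted p = 2.2e-05) and -2.68 in shZC3H11A cells (SE 0.27, edgeR adjusted p = 2.72e-07).

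Cxcl10 had 6, 8 and 7 counts in shFalcor, 3, 4 and 0 in shZC3H11A and 34, 23 and 26 in shCtrl cells, and passed the filter through the control group. Its log2 change was -1.90 in shFalcor (SE 0.52, edgeR adjusted p = 0.00538) and -3.26 in shZC3H11A cells (SE 0.62, edgeR adjusted p = 0.000273). Cxcl2 had 4, 2 and 4 counts in shFalcor, 8, 9 and 12 in shZC3H11A and 12, 18 and 17 in shCtrl cells. It passed the filter through shCtrl and shZC3H11A libraries, and not through shFalcor cells, where it is low. It was lower in shFalcor than in shCtrl cells (log2 change -2.23, SE 0.58, edgeR adjusted p = 0.00352) and was not called in shZC3H11A cells (log2 change -0.48, SE 0.49, edgeR adjusted p = 0.451). Between the 2 knockdowns Cxcl2 was lower in shFalcor cells (log2 change -1.74, SE 0.60, edgeR adjusted p = 0.0198), and this call was lost on leaving out any of 4 of the 6 libraries in turn.

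Ccl2 had 938, 701 and 1278 counts in shFalcor, 1128, 623 and 746 in shZC3H11A and 1107, 794 and 828 in shCtrl cells. In CPM it averaged 147 ± 6.17 in shFalcor, 143 ± 11.9 in shZC3H11A and 136 ± 7.26 in shCtrl cells (SD, n = 3 each). The groups overlapped, and its log2 change of 0.11 in shFalcor cells (SE 0.07, edgeR adjusted p = 0.211) became 0.26 (edgeR adjusted p = 0.00773) when libraries were scaled by size alone. Its neighbour Ccl7 had 19, 4 and 19 counts in shFalcor, 17, 5 and 7 in shZC3H11A and 3, 0 and 5 in shCtrl cells, and passed the filter through the knockdown groups. Its log2 changes were 2.32 in shFalcor (SE 0.73, edgeR adjusted p = 0.0124) and 2.00 in shZC3H11A cells (SE 0.75, edgeR adjusted p = 0.0364), each lost without any of 3 of the 6 libraries in turn, and that in shZC3H11A cells also with DESeq2 (adjusted p = 0.0506). Csf3 had 47, 28 and 61 counts in shFalcor, 84, 45 and 64 in shZC3H11A and 66, 46 and 53 in shCtrl cells. It was not called against shCtrl in either knockdown (edgeR adjusted p = 0.291 and 0.0817) and was lower in shFalcor than in shZC3H11A cells (log2 change -0.72, SE 0.21, edgeR adjusted p = 0.00666).

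**Figure D2:**
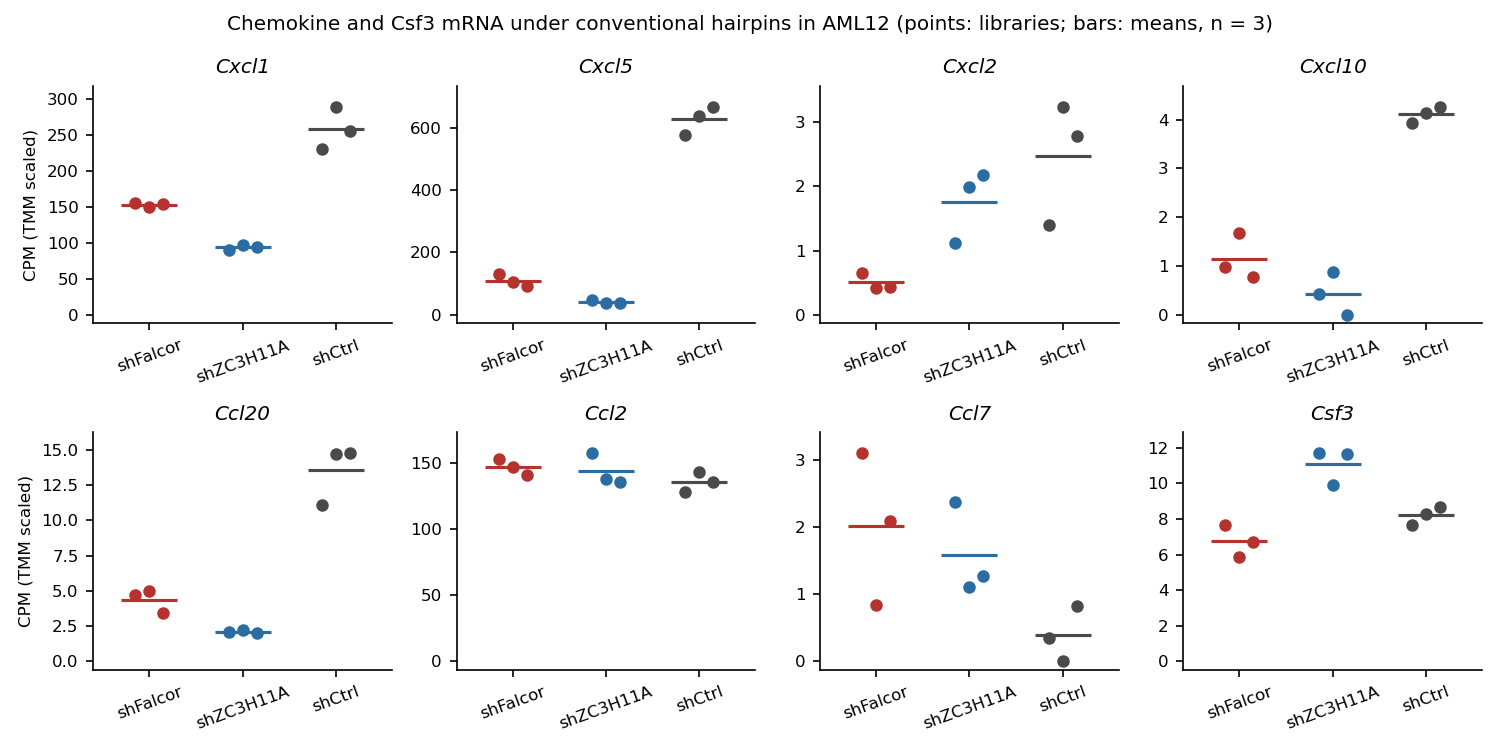
CPM after TMM scaling (vertical axis, one linear axis per gene) of 8 members in each conventional hairpin library, with shFalcor, shZC3H11A and shCtrl from left to right; points are libraries and bars are means of 3. Cxcl1, Cxcl5, Cxcl10 and Ccl20 are lower in both knockdowns than in shCtrl cells without overlap, and Ccl2 overlaps between groups.

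Per kilobase of the longest annotated transcript, Cxcl5 was the most abundant member in shCtrl cells at 337 ± 24.3 CPM per kb. Cxcl1 at 138 ± 15.7 and Ccl2 at 124 ± 6.62 followed, with overlapping libraries, then Ccl20 at 9.55 ± 1.48, Csf3 at 5.80 ± 0.372 and Cxcl10 at 1.84 ± 0.0735 CPM per kb (SD, n = 3). Cxcl2 at 1.20 ± 0.466, Ccl7 at 0.486 ± 0.514 and Cx3cl1 at 0.196 ± 0.110 came last, and Ccl7 overlapped with both of its neighbours. In shFalcor cells Ccl2 led with 134 ± 5.63, ahead of Cxcl1 with 81.8 ± 1.44 and Cxcl5 with 58.9 ± 9.93 CPM per kb (SD, n = 3). In shZC3H11A cells the same order held, with 131 ± 10.8 for Ccl2, 50.1 ± 2.08 for Cxcl1 and 21.7 ± 3.10 for Cxcl5.

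Set side by side, the line difference with doxycycline and the conventional Falcor hairpin difference had opposite signs for part of the family. With doxycycline the log2 change of Cxcl1 against its control was 0.90 in shLinc cells, and under the conventional hairpin it was -0.75 in shFalcor cells. That of Cxcl5 was 1.35 in shLinc and -2.52 in shFalcor cells. The shLinc line already differed without doxycycline, by 1.33 for Cxcl1 and 2.96 for Cxcl5, so the values with doxycycline include that line difference. Relative to untreated cells the hairpin difference with doxycycline was lower, by -0.43 for Cxcl1 and -1.62 for Cxcl5. Relative to restored cells it was higher, by 1.49 for Cxcl1 and 0.91 for Cxcl5. Ccl20 was lower in both, by log2 changes of -1.08 in shLinc and -1.64 in shFalcor cells. The shLinc line was already lower in Ccl20 without doxycycline, by -1.37, and again after its removal, by -1.88. The Ccl20 hairpin difference with doxycycline was higher by 0.29 relative to untreated cells, a call lost without rescaling. Relative to restored cells it was higher by 0.80. The tables were normalized separately and in different units, and the difference between them was not tested.

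**Figure D3:**
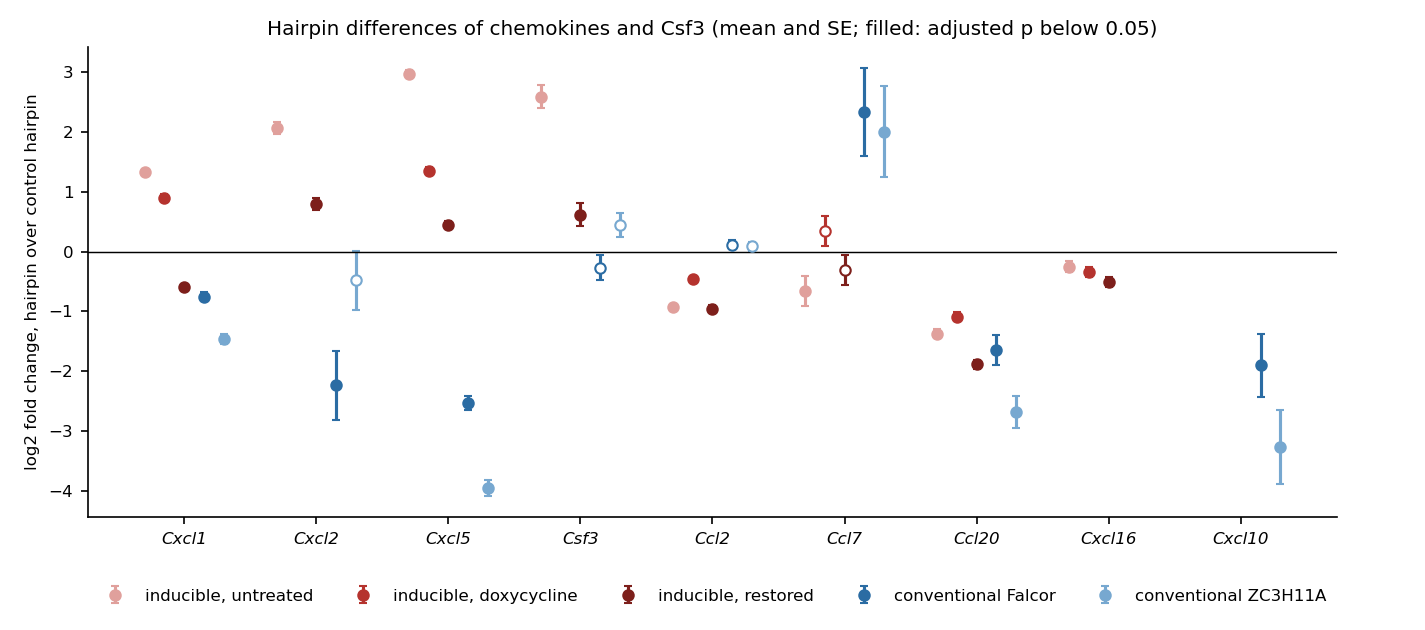
Log2 change of 9 members between a hairpin and its control hairpin (vertical axis, mean and SE), for 3 states of the inducible lines in reds (of value plus 1, limma) and for the conventional shFalcor and shZC3H11A hairpins in blues (edgeR); filled points have an adjusted p below 0.05. Cxcl5 lies above 0 in the inducible and below 0 in the conventional comparisons, Ccl20 lies below 0 in all 5, and Cxcl2 and Csf3 with doxycycline are left out because their control libraries are listed at 0.

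The other genes of the pathway were followed by lists. Of 27 other chemokines, 5 were tested in the inducible table and 3 were higher in shLinc cells in each state, with 0 lower, against 65.3% of all tested genes called without doxycycline, 52.4% with it and 57.9% after its removal, shares near that of the list. With doxycycline these were Cxcl17 (log2 change 0.73), Ppbp (0.70) and Cxcl3 (0.42), of which Ppbp and Cxcl3 are Cxcr2 ligands that lie between Cxcl5 and Cxcl1. After removal of doxycycline the call of Ppbp was lost without any of 4 of the 6 libraries in turn (limma adjusted p = 0.0185 with all). In untreated cells Cxcl3 had a log2 change of 1.35 and Cxcl17 of 1.06 (limma, adjusted p = 2.65e-11 and 2.86e-10). Under conventional hairpins 7 were tested, and 4 were lower and 0 higher in each knockdown. Over all tested genes 51.5% were called in shFalcor and 48.5% in shZC3H11A cells, shares near that of the list. In shFalcor cells these were Cxcl11 (log2 change -2.42), Ccl9 (-1.73), Ccl28 (-1.72) and Cxcl17 (-0.43), the last not called when libraries were scaled by size alone (edgeR adjusted p = 0.0881). In shZC3H11A cells they were Cxcl11 (-2.28), Cxcl3 (-2.16), Ccl25 (-2.03) and Ccl28 (-1.98), with edgeR adjusted p-values of 1.79e-05 to 0.0065. Cxcl11 is annotated as a polymorphic pseudogene in mm10.

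Of 15 NF-kB subunits, kinases and inhibitors, 14 were tested in the inducible table. With doxycycline 1 was higher and 11 lower than without in shLinc cells (median log2 change -0.56), and 2 were higher and 10 lower in shCtrl cells (median -0.74), against medians of 0.02 and 0.01 over all tested genes. Of those genes 35.6% were called lower in shLinc cells (74.2% in either direction) and 32.5% in shCtrl cells (66.5%). Nfkbia had log2 changes of -1.53 in shLinc and -1.74 in shCtrl cells, and Nfkbie, a related inhibitor, of -2.39 in shLinc and -1.29 in shCtrl cells (limma, SE 0.04 each). Between the lines with doxycycline 3 were higher and 10 lower in shLinc cells (median -0.25), against 52.4% of all tested genes called, with Nfkbie at -1.27. In untreated cells 4 were higher and 5 lower, against 65.3% of all tested genes called, with Nfkbiz, an inducible nuclear regulator, at 1.69. Of 15 tested under conventional hairpins, 5 were higher and 6 lower in shFalcor cells (median -0.10), and 4 were higher and 7 lower in shZC3H11A cells (median -0.24). Over all tested genes 51.5% were called in shFalcor and 48.5% in shZC3H11A cells. Nfkbia was lower in shFalcor cells (log2 change -1.06, SE 0.10, edgeR adjusted p = 4.52e-07).

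Of 9 other myeloid growth factors and related cytokines 5 were tested in the inducible table, and with doxycycline 0 were higher and 3 lower in shLinc cells, and 1 was higher and 3 were lower in shCtrl cells. The share of all tested genes called was 74.2% in shLinc and 66.5% in shCtrl cells. Csf1, the macrophage growth factor, had log2 changes with doxycycline of -1.62 in shLinc and -1.70 in shCtrl cells (limma, SE 0.05 each). Under conventional hairpins 7 were tested, with 1 higher and 4 lower in shFalcor and 1 higher and 3 lower in shZC3H11A cells. That share was 51.5% in shFalcor and 48.5% in shZC3H11A cells. Csf1 was lower in shFalcor (log2 change -0.53, SE 0.06) and in shZC3H11A cells (log2 change -1.73, SE 0.07), with edgeR adjusted p = 2.01e-06 and 1.39e-12. Csf2, which promotes granulocytes and macrophages, was listed at 31 to 33 in untreated shLinc and 10 to 11 in untreated shCtrl cells (log2 change 1.35, limma adjusted p = 9.28e-06). It was lower in shFalcor than in conventional shCtrl cells (log2 change -1.94, SE 0.27, edgeR adjusted p = 1.04e-05).

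Of 8 factors that bind AU-rich or stem-loop elements of short-lived mRNAs, all tested, 3 were higher and 4 lower with doxycycline in shLinc cells, and 4 were higher and 3 lower in shCtrl cells. The share of all tested genes called was 74.2% in shLinc and 66.5% in shCtrl cells. Zfp36 (tristetraprolin) and the RNase Zc3h12a (regnase-1) were among the lower ones in both lines. The log2 change of Zfp36 was -2.17 in shLinc and -1.75 in shCtrl cells, and that of Zc3h12a -3.10 in shLinc and -1.74 in shCtrl cells (limma, adjusted p of 2.82e-07 or less). Against conventional shCtrl cells 0 were higher and 4 lower in shFalcor cells, and 2 were higher and 4 lower in shZC3H11A cells. Here 51.5% of all tested genes were called in shFalcor and 48.5% in shZC3H11A cells. In shFalcor cells Zfp36 (log2 change -1.69, SE 0.09) and Zfp36l2 (-2.22, SE 0.07) were lower than in shCtrl cells (edgeR adjusted p = 6.56e-10 and 1.8e-13). Zc3h12a was lower in shZC3H11A cells (log2 change -1.54, SE 0.09, edgeR adjusted p = 4.24e-10). Of 10 AP-1 and C/EBP factors, which also act on chemokine promoters, 1 was higher and 8 lower with doxycycline in each line (median log2 change -0.93 in shLinc and -1.53 in shCtrl cells). Of all tested genes 35.6% were called lower in shLinc and 32.5% in shCtrl cells. Against shCtrl cells, 1 was higher and 7 lower in shFalcor cells, and 4 were higher and 3 lower in shZC3H11A cells, beside the same 51.5% and 48.5% of all tested genes called. Of 15 cytokine and Toll-like receptors and adaptors that induce chemokines, 10 were tested in the inducible table, with 2 higher and 6 lower with doxycycline in each line. This stands beside the same 74.2% and 66.5% of all tested genes called in either direction.

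Of 9 interferon pathway genes 4 were tested in the inducible table, and all 4 were lower with doxycycline in both lines, against 35.6% of all tested genes called lower in shLinc and 32.5% in shCtrl cells, Irf1 by log2 changes of -1.20 in shLinc and -0.85 in shCtrl cells. Of 7 tested under conventional hairpins, 1 was higher and 2 lower in shFalcor cells, and 1 was higher and 4 lower in shZC3H11A cells. Over all tested genes 51.5% were called in shFalcor and 48.5% in shZC3H11A cells. Ifit1, also interferon-induced, was lower in shFalcor (-1.61) and shZC3H11A cells (-3.56, edgeR adjusted p = 5.64e-05 and 6.29e-08). Of 4 genes of the shedding machinery for Cxcl16 and Cx3cl1, 2 were higher and 1 lower in shFalcor cells, and 3 were higher and 0 lower in shZC3H11A cells, beside the same 51.5% and 48.5%. Adam17 was higher in both, by log2 changes of 0.52 in shFalcor and 0.25 in shZC3H11A cells (edgeR adjusted p = 7.93e-05 and 0.0307). Adam10 was lower in shFalcor (log2 change -1.54, SE 0.08) and higher in shZC3H11A cells (log2 change 0.75, SE 0.08) than in shCtrl cells (edgeR adjusted p = 6.78e-11 and 1.98e-07).

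Markers of cell types also moved with the conventional Falcor hairpin. Of 8 tested hepatocyte markers 0 were higher and 7 lower in shFalcor than in shCtrl cells (median log2 change -1.82), and 3 were higher and 4 lower in shZC3H11A cells (median -0.25). Over all tested genes 51.5% were called in shFalcor and 48.5% in shZC3H11A cells. The summed hepatocyte list was 1974 to 2126 CPM in shFalcor, 2353 to 2773 CPM in shZC3H11A and 2714 to 2908 CPM in shCtrl cells. Summed stellate cell markers had a median of 24.5 CPM in shFalcor, 22.7 CPM in shZC3H11A and 16.9 CPM in shCtrl cells, and every shFalcor library lay above every shCtrl library. The summed macrophage list was 48.6 to 51.3 CPM in shFalcor and 4.10 to 5.56 CPM in shCtrl cells. Most of it was Cd68, a lysosomal glycoprotein, which had 49.2 ± 1.74 CPM in shFalcor, 6.32 ± 2.11 in shZC3H11A and 3.84 ± 0.845 in shCtrl cells (SD, n = 3 each). Adgre1, Clec4f, Vsig4, Marco and C1qa had no count in any shCtrl or shFalcor library, and Cd5l had none in any shFalcor library. The part of these markers in the chemokine differences was not tested. Neutrophil markers summed to 0.814 to 1.65 CPM in shFalcor and 0.164 to 1.26 CPM in shCtrl cells.

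In liver, only Cxcl1 passed the filter, and its KO and control values overlapped on both diets. On NCD it was listed at 3, 5, 7 and 8 in KO livers and at 8, 14, 29 and 3 in control livers. The log2 change was -0.98 (SE 0.57, limma adjusted p = 0.283), and 5.98% of 9536 tested genes were called. On HFD it was listed at 13, 11, 16, 38, 22 and 2 in KO livers and at 1, 2, 10, 30 and 5 in control livers. The log2 change was 1.12 (SE 0.69, limma adjusted p = 0.557), and 0.0486% of 6176 tested genes were called. In whole tissue fewer cells of a type and less RNA per cell cannot be told apart.

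The KO difference was lower on NCD and higher on HFD, and the difference between the diets, 2.10 on the log2 scale (SE 0.90, adjusted p = 0.131 from the 2 limma estimates), was not called, with 7.13% of 6128 tested genes called. It passed the threshold, at 2.62 and an adjusted p of 0.0336 from the 2 limma estimates, without control replicate 4 on NCD, the control liver with the lowest Cxcl1 there. The HFD KO library with 2 had a TMM factor of 0.423, the lowest of the 11, and without it the HFD log2 change was 1.41. In the HFD libraries 3 rows of identical values held 22.4% to 78.2% of the deposited total. With those rows left out of the scaling the HFD log2 change was 1.06 (limma adjusted p = 0.524). Without 1 library in turn the log2 change ranged from 0.67 to 1.73 on HFD and from -1.50 to -0.53 on NCD, and it was not called in any of these fits (lowest limma adjusted p = 0.0505, on NCD). Summed macrophage markers ranged from 116 to 172 in KO and 148 to 303 in control livers on NCD, and from 30.4 to 86.5 in KO and 35.2 to 89.5 in control livers on HFD, and their part in Cxcl1 was not tested. The NCD control liver with 303 had a Cxcl1 value of 8, and that with the highest Cxcl1, 29, had 150. Cxcl2, Ccl20 and Csf3 were listed at 0 in all 19 livers, and no other member exceeded 3 in any.

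**Figure D4:**
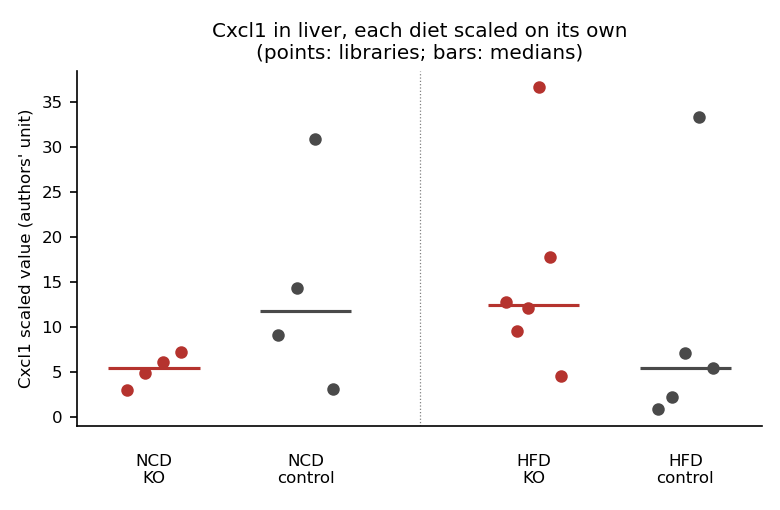
Scaled Cxcl1 (vertical axis, the authors' unit after TMM scaling within each diet) in each liver, with KO left of control for NCD and then for HFD; points are livers and bars are medians. KO and control values overlap on both diets, and 1 HFD control liver at 33.3 lies far above the other 4. The diets were scaled separately, so levels are not compared between them.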

How the data were processed

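Per the labels' protocols, libraries were strand-specific and made after rRNA depletion. Kallisto, DESeq2 and mm10 are listed in the submitters' processing notes; for settings and annotation release, nothing was given in the sources used. The conventional hairpin table holds raw counts deposited by the authors. The inducible and both liver tables hold values deposited by the authors as whole numbers in an unnamed normalized unit, treated as a score, so their depth is unknown. From the score tables, values were TMM scaled within a table, kept at a mean of at least 3 and tested as log2(value + 1) with limma 3.58.1 (trend, all groups of a table in one fit). Counts were filtered with filterByExpr and tested with edgeR 4.0.16 quasi-likelihood (R 4.3.3). Printed SEs come from these fits and reflect spread between libraries. The 2 liver tables were each fitted alone, and the diet difference was taken from the 2 limma estimates with combined standard errors. A gene was called at a Benjamini-Hochberg adjusted p below 0.05 over all tested genes. Members and lists were chosen with earlier results of these data known. Of each list, called genes with the smallest p were named. Procedures were tested on simulated data. Alternatives were other pseudocounts, filters and scalings, DESeq2 1.42.0, replicate blocks and leaving out each library. Same-numbered replicates shared little deviation (median r of 0.0135 and 0.0198 in the AML12 tables), so the numbers were not taken as pairs. Among inducible pairs, 4 of 45 same-numbered and 2 of 90 others had an r above 0.1. Among conventional pairs it was 1 of 9 and 0 of 18. Between the lines with doxycycline r was 0.0318 to 0.125 for same-numbered pairs and -0.115 to -0.0074 for the others.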

Additional observations from a re-analysis of the deposited data

Results flagged for a closer look

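Cxcl1 in 1 HFD control liver had a scaled value of 33.3, far above the other 4 control livers on that diet, whose values were 7.16 or less. It was 1 of 6 sets of liver values (Cxcl1 or Falcor in 1 group) examined this way, and chance flags about 1 in 20 groups. Without that library the log2 change of KO over control livers on HFD was 1.73 (limma adjusted p = 0.328), against 1.12 with it.

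The difference between the shLinc and shCtrl lines depended on doxycycline for 7 of 8 tested members, by a limma interaction test that called 64.9% of all tested genes. On the log2 scale, the hairpin difference with doxycycline minus that without it was -1.62 for Cxcl5, -0.43 for Cxcl1, 0.47 for Ccl2 and 0.29 for Ccl20. It was 1.00 for Ccl7, -1.02 for Cxcl2 and -2.23 for Csf3, genes whose values with doxycycline were all 1 or less, so these 3 sizes depend on the pseudocount. Csf3 also passed the filter only through untreated shLinc cells, so it had to be high there to be tested. Against the restored state, the hairpin difference with doxycycline was higher by 1.49 for Cxcl1, 0.91 for Cxcl5, 0.50 for Ccl2 and 0.80 for Ccl20 (limma adjusted p = 8.98e-06 or less for all but Ccl2, at 3.59e-05). The Ccl20 difference between doxycycline and untreated cells was lost without rescaling, at 0.095 (limma adjusted p = 0.416), and without 6 of 12 libraries left out in turn. The Ccl7 one was lost without 3 of 12.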

How the results depend on the processing

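Of the members' values under an alternative, 1471 kept their direction and side of the threshold, 31 lost and 13 gained a call, and 11 changed sign. In the AML12 tables the count of called genes stayed within 1.5 times under every alternative run. Without 1 library in turn, called members ranged from 5 to 8 between the untreated lines and from 4 to 7 for the hairpin difference between doxycycline and untreated cells, both lowest without untreated shLinc replicate 2. The sign changes were of values that were not called with all libraries. With a pseudocount of 5 the Cxcl2 hairpin difference between doxycycline and restored cells became -0.34 (limma adjusted p = 0.00564), and with 0.5 it was 0.81 (limma adjusted p = 0.00019). With 1 library left out, log2 changes ranged from 0 to 0.52 for Csf3 between the lines with doxycycline, from -0.23 to 0.11 for Ccl7 and -0.25 to 0.017 for Cxcl2 between restored and untreated shCtrl cells, from -0.15 to 0.028 for the Cxcl16 hairpin difference between doxycycline and untreated cells, and from -0.014 to 0.099 for Ccl2 and -0.071 to 0.77 for Ccl7 between shFalcor and shZC3H11A cells. The cause was not tested. Without rescaling, the median of all genes moved to 0.16 between untreated lines and 0.13 between restored lines, and the share of calls that were higher became 67.6% (46.2% with scaling) and 67.2% (44.5%). For shFalcor over shCtrl cells the median moved to 0.14 and the share to 62.5% (49.5%), and for doxycycline over untreated shLinc cells to -0.18 and 35.9% (52.0%). For restored over doxycycline shLinc cells the share became 62.6% (47.4%), for the hairpin differences 36.0% (52.3%) and 36.7% (52.4%), and for shFalcor over shZC3H11A cells 61.3% (49.8%).

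Counts of all called genes in liver depended on the processing. On NCD 570 became 1746 without rescaling (94.9% higher, against 69.6%) and 6 to 1707 without 1 library in turn. On HFD 3 became 12 without a filter, 0 at a mean of at least 10 (limma), 29 without rescaling, 1 with median-of-ratios scaling, 10 without 3 rows of identical values, and 1 to 8 without 1 library in turn. For the diet difference 437 became 230 without a filter, 51 without rescaling (13.7% higher, against 35.2%), 739 without those rows, and 66 to 1169 without 1 library in turn, when called members ranged from 0 to 1. Cxcl1 was not called for either diet under any alternative run.

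A replicate block left 6 called members between the lines with doxycycline (5149 genes called in all), 8 between the untreated lines, 7 between the restored lines, 6 for shFalcor and 5 for shZC3H11A over shCtrl cells, the same counts as without it. In liver, where KO and control are different animals and the control columns do not all carry replicate numbers, no paired fit was made.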
